A study of Mus musculus with 8 samples.

Results

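The segments described here are stretches of the mouse genome where histone H3 was both di- and trimethylated at lysine 9 (H3K9me2 and H3K9me3) but not monomethylated (H3K9me1). They were found in mouse embryonic fibroblasts (MEFs), which are fibroblasts cultured from mouse embryos. Chromatin immunoprecipitation and sequencing (ChIP-seq) had been run for each mark and for input, in 8 samples of 4 groups with 2 replicates each, and 1 region list per mark was analysed. All samples came from the same MEF line, named E1c. It carries a conditional allele of Eset1 that was left intact here, and the study uses it as wild type. On chromosomes 5, 8, 9, 10, 11, 14, 15, 17 and 19 the 3 lists were split into the longest runs of bases covered by the same set of marks. Runs of at least 1.5 kb under H3K9me2 and H3K9me3 alone were kept. This gave 14865 segments among 90626 marked runs of at least 1.5 kb, beside 8823 runs of H3K9me2 only, 15435 of H3K9me3 only and 13119 of all 3 marks. The segments were thus chosen by the lists themselves, so their marks, number, width and borders are given as a description and carry no test. All values rest on 1 cell line and on 1 list per mark without values per replicate. No SD between replicates exists for them, and how many reads lie behind a segment is unknown.

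H3K9me2 and H3K9me3 mark repressed chromatin. For H3K9me1 the study reports the opposite at promoters, with higher expression of genes so marked than of genes lacking H3K9 methylation. The enzymes G9a and Glp lay down mono- and dimethylation, largely in euchromatin, while Suv39h1 and Suv39h2 trimethylate constitutive heterochromatin and Eset1 trimethylates retrotransposons. The trimethylated lysine is bound by heterochromatin protein HP1. A base under H3K9me2 and H3K9me3 in lists from many cells can carry both marks in different cells or on different copies of the chromosome, and the lists cannot tell these apart.

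The 3 stretches of 150 bases show the sequence range of the segments. They were read from the middle of the widest segment and of the segments with the highest and the lowest GC content among those of at least 6 kb, on the plus strand of GRCm38, with every CpG in capitals.
Widest segment, chr15:65442301-65442450: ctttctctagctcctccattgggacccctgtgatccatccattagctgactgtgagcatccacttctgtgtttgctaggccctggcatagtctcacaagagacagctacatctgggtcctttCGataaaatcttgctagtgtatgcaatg
GC-richest segment, chr15:84037426-84037575: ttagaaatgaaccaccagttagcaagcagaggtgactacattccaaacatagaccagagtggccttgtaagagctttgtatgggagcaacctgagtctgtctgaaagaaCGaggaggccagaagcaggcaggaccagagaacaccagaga
GC-poorest segment, chr10:57251926-57252075: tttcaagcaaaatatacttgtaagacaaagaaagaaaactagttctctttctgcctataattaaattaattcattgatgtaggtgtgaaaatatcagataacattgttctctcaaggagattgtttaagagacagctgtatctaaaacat
The first stretch was 48% GC, had 1 CpG and was wholly soft-masked, that is, marked as repeat sequence in the assembly. The second lay in Efcab6, a gene for a calcium-binding protein, with 1 CpG in 48.7% GC. It came from a segment of 54.6% GC. The third lay outside protein-coding genes, had 28.7% GC and 0 CpGs, and came from a segment of 34.3% GC.

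The segments covered 72.3 Mb, or 7.14% of the sequenced bases of these chromosomes. They held 30.2% of all bases under H3K9me2 and 27.2% of those under H3K9me3. Their median width was 3.75 kb, the 90th percentile 9.75 kb and the maximum 68.25 kb. With regions under 5 kb left out of each list there were 7750 segments with a median of 6.75 kb. Segments of 1.5 to 2.25 kb made up 37.4% of the number but 14.1% of the length, while the 1163 segments of 10.5 to 19.5 kb held 21.8% of it and the 229 of 20.25 to 49.5 kb held 8.35%. Exactly 3097 segments measured 1.5 kb, at the threshold, and 3593 further runs of 0.75 kb fell just under it.

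The number of segments differed widely between chromosomes. Chromosome 10 had 3831 segments, chromosome 8 had 3001 and chromosome 15 had 2825, and together they held 65.0% of all segments and 65.3% of the length. Chromosome 11 had the fewest with 434. Segments covered 14.01% of chromosome 15, 13.8% of chromosome 10 and 12.3% of chromosome 8. On the other chromosomes the covered share ran from 1.96% on chromosome 11 to 7.01% on chromosome 19. As a share of the bases under H3K9me2, by contrast, chromosome 5 came first with 41.5% and chromosome 10 last with 23.5%. Since chromosomes 8, 10 and 15 weigh heavily in any pooled value, the base composition and borders below are also read within chromosomes. Gene lists are pooled and set against all protein-coding genes of the same chromosomes, and most other values are pooled.

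**Figure D1:**
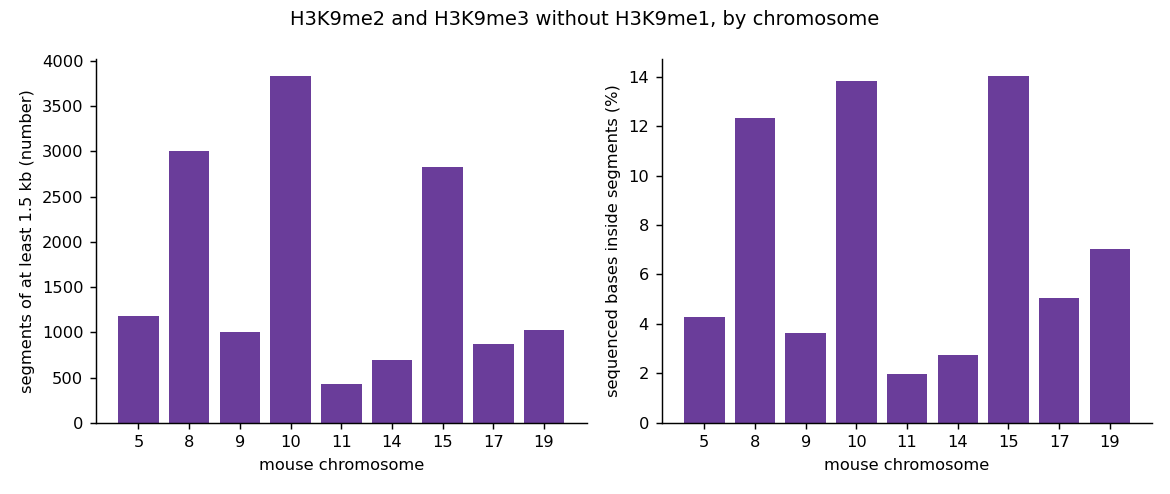
Number of segments (left) and share of sequenced bases inside segments in percent (right) for each of the 9 chromosomes. Chromosomes 8, 10 and 15 stand above the others in both panels, with 2825 to 3831 segments and 12.3 to 14.01% of bases.

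Segments lay in clusters. The gap to the next segment had a median of 7.5 kb, and 38.7% of the 14856 gaps were at most 5 kb. Of 1012 windows of 1 Mb, 213 held no segment, the median window was covered to 1.8% and 113 windows were covered to more than 20%. The most covered window, on chromosome 15 from 87000001 to 88000000, was covered to 76.4% and met Fam19a5, which encodes a secreted brain protein. The window on chromosome 8 from 89000001 to 90000000 was covered to 75.2% and met Sall1, a zinc finger transcription factor of kidney development. The window on chromosome 10 from 73000001 to 74000000 was covered to 67.1% and lay across Pcdh15, a protocadherin of the inner ear hair cell. The window on chromosome 8 from 92000001 to 93000000 was covered to 63.9% and had 6 protein-coding starts, among them the homeobox genes Irx5 and Irx6. The window on chromosome 17 from 9000001 to 10000000 was covered to 62.9%.

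Windows covered to more than 20% had a median of 3 protein-coding gene starts, against 8 in the 452 windows covered to at most 5% and 5 in windows with none. Within chromosomes the relation to gene number did not keep its sign. Spearman's rank correlation between covered share and gene starts ran from -0.53 on chromosome 10 to 0.47 on chromosome 14 and was below 0 on 5 of 9 chromosomes. The rank correlation with GC content ran from -0.62 on chromosome 10 to 0.55 on chromosome 5. Neighbouring windows share regions, so these are descriptions over 58 to 148 windows a chromosome.

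Most segments were parts of wider regions. Of all segments, 33.1% (95% Wilson interval 32.4 to 33.9%) were a whole H3K9me2 region lying inside an H3K9me3 region. The reverse, a whole H3K9me3 region inside H3K9me2, made up 7.23% (6.83 to 7.66%). In 58.6% (57.9 to 59.4%) the segment was a part of both regions, and in 146 segments both regions began and ended together. Wilson intervals here and below cover counting error only, and segments are not independent replicates. Segments were found in 39.9% of the 27621 H3K9me2 regions and in 34.6% of the 23355 H3K9me3 regions. Among H3K9me3 regions, 483 held 5 or more segments, against 226 H3K9me2 regions. An H3K9me3 region of 645 kb on chromosome 15 from 86499751 to 87144750 met no protein-coding gene and was covered by 44 segments over 73.1% of its length.

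Pooled over the chromosomes, the neighbour at a border was most often H3K9me3 alone, while on chromosomes 10, 15 and 17 it was most often all 3 marks. Of 29730 borders, 41.9% (41.3 to 42.4%) faced H3K9me3 only, so that H3K9me2 ended there, and 34.2% (33.6 to 34.7%) faced all 3 marks, so that H3K9me1 began. H3K9me2 only followed with 14.3% and no mark with 8.64%. Direct borders with H3K9me1 only were rare, with 22 in all. By side, 25.6% of segments had H3K9me3 only on both sides, 20.3% had all 3 marks on both sides, and 14.6% had one of each. Chromosomes differed in the mix. The share facing H3K9me3 only ran from 37.5% on chromosome 10 to 56.0% on chromosome 5, and the share facing all 3 marks from 15.1% on chromosome 9 to 42.7% on chromosome 10. All 3 marks led on 3 of 9 chromosomes, by 42.7% to 37.5% on chromosome 10, 41.2% to 39.6% on chromosome 15 and 39.7% to 38.1% on chromosome 17, and these held 7525 segments (50.6%). With regions under 5 kb left out of each list, the share facing all 3 marks was 26.2%.

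**Figure D2:**
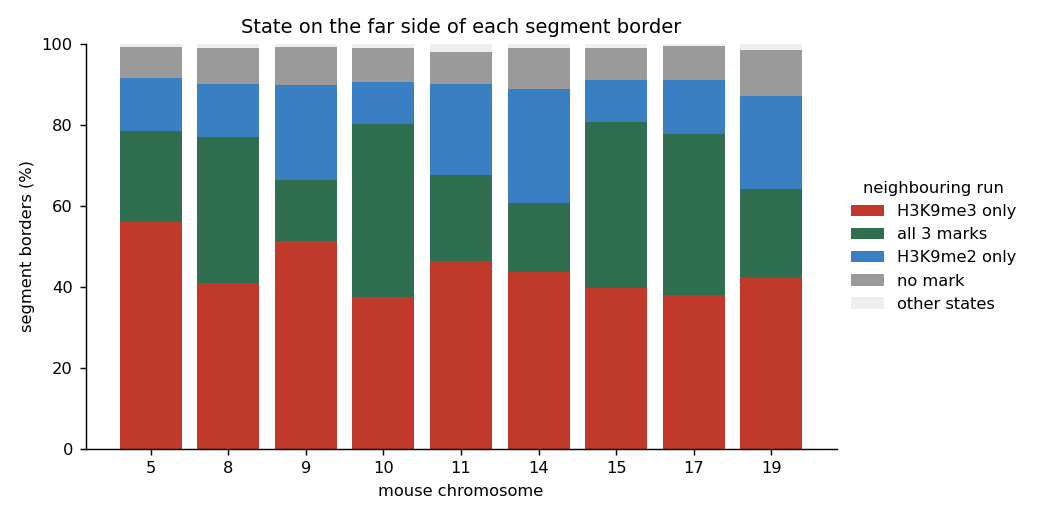
Share of segment borders (percent, stacked to 100) by the set of marks on the far side, for each of the 9 chromosomes. Borders to H3K9me3 only make up 37.5 to 56.0% and borders to all 3 marks 15.1 to 42.7%, the latter highest on chromosomes 10, 15 and 17.

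Base composition did not enter the choice of segments. The segments had 42.5% GC, against 40.9% in runs without a mark, 42.6% in H3K9me2 only, 42.2% in H3K9me3 only, 43.5% in all 3 marks and 46.0% in H3K9me1 only. Pooled, their difference to H3K9me2 only was -0.154 percentage points. Within chromosomes the order was the opposite, and the segments were more GC-rich than H3K9me2 only on 9 of 9 chromosomes, by 0.239 to 2.21 points. They were also more GC-rich than H3K9me3 only on 9 of 9 chromosomes, by 0.506 to 2.01 points, and than unmarked runs on 9 of 9, by 0.667 to 5.01 points. They were less GC-rich than all 3 marks on 8 of 9 chromosomes and than H3K9me1 only on 9 of 9. Chromosome 10, with the most segments, had the lowest GC content in them (40.1%), and chromosome 5 the highest (45.7%). Counting unmasked bases alone, the segments stayed above H3K9me2 only and H3K9me3 only on 9 of 9 chromosomes and above unmarked runs on 8.

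Repeat content was lower than under H3K9me3 alone. Soft-masked bases made up 36.0% of the segments and 41.0% of H3K9me3 only, and the segments were lower on 9 of 9 chromosomes, with differences of -12.9 to -0.652 points. All 3 marks had 30.1%, lower than the segments on 8 of 9 chromosomes, and H3K9me1 only had 24.9%, lower on 9 of 9. H3K9me2 only had 31.3%, and the segments were higher than these runs on only 6 of 9 chromosomes. Against unmarked runs (34.3%) the segments were higher on 4 chromosomes and lower on 5, so the pooled excess of 1.62 points was not shared by the chromosomes. Single segments varied widely. The median segment was 28.1% masked, with a 10th percentile of 12.1% and a 90th percentile of 86.4%, and 1279 segments (8.60%) were at least 90% masked. The masked share fell with width, from 40.2% in segments of 1.5 to 2.25 kb to 29.8% in those of 20.25 to 49.5 kb.

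**Figure D3:**
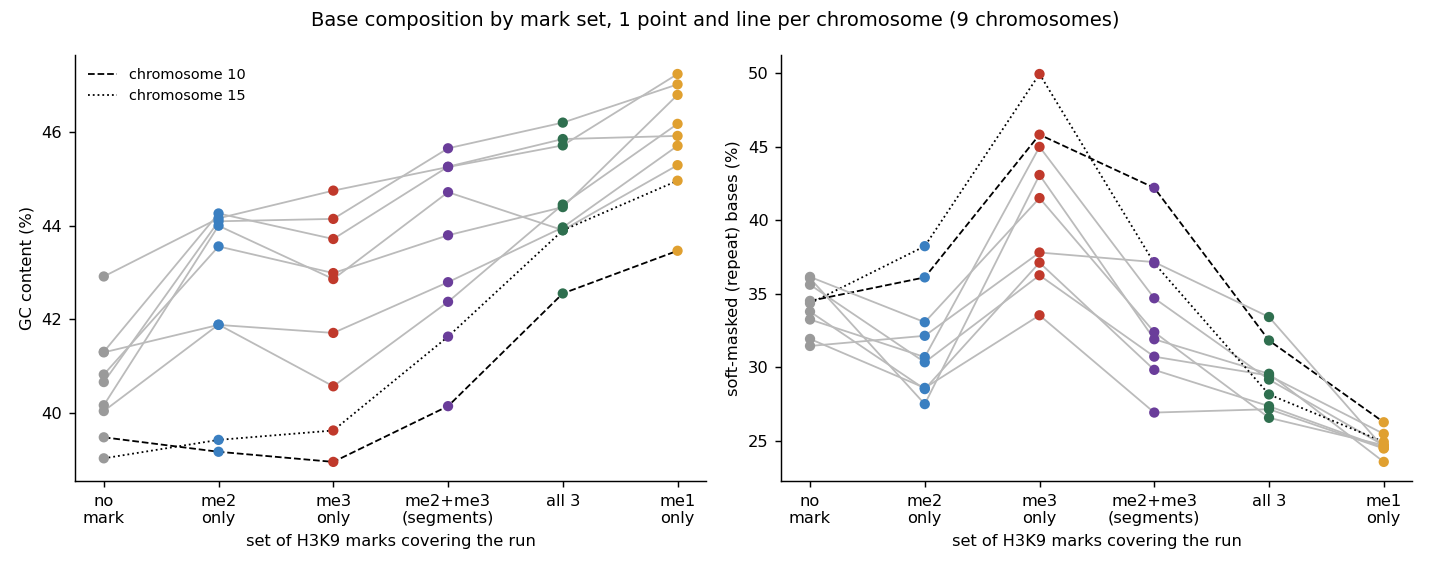
GC content (left) and soft-masked bases (right), both in percent, for runs of at least 1.5 kb by the set of H3K9 marks covering them (me1, me2 and me3 stand for H3K9me1, H3K9me2 and H3K9me3), with 1 point and line per chromosome. On every chromosome the segments (me2+me3) lie above no mark, me2 only and me3 only in GC content, and below me3 only in soft-masked bases. Chromosomes 10 and 15, drawn in black, have low GC content.

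CpG dinucleotides were depleted under every set of marks and in unmarked runs. In the segments they stood at 0.187 of the number expected from the C and G content. Unmarked runs had 0.196, all 3 marks 0.196 and H3K9me1 only 0.220. The ratio in segments was higher than in unmarked runs on 4 of 9 chromosomes, than in all 3 marks on 3 and than in H3K9me1 only on 0. The ratio was higher than in H3K9me2 only (0.163) on 9 of 9 chromosomes and lower than in H3K9me3 only (0.204) on 9 of 9. The 6-letter motif TGCCGC, the core bound by the zinc finger protein ZFP57 at imprinted genes, was counted on both strands. It occurred 69.3 times per Mb in segments, 50.3 in H3K9me2 only and 80.0 in H3K9me3 only. The segments were above H3K9me2 only on 9 of 9 chromosomes. Against H3K9me3 only the pooled order did not hold within chromosomes, where the segments were higher on 7 of 9. Runs of 6 CA units had 1351 start positions per Mb in segments and 1577 in all 3 marks, and the segments were lower on 9 of 9 chromosomes.

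Composition changed at the border itself, within 1 bin of 0.75 kb. At borders facing H3K9me3 only, the last bin outside had 41.1% GC and the first bin inside 42.5%, a rise on 9 of 9 chromosomes (0.762 to 1.96 points). Masked bases dropped there from 41.1% to 38.5% and were lower inside on 9 of 9 chromosomes. At borders facing no mark the step in GC content was larger, from 39.2% to 42.0%, and again inside was higher on 9 of 9. At borders facing H3K9me2 only, GC content went from 40.8% to 42.2%, inside being higher on 9 of 9. At borders facing all 3 marks the step ran the other way, from 42.5% outside to 42.0% inside, with inside higher on 1 of 9 chromosomes. Masked bases rose there from 33.8% to 37.7% and were higher inside on 9 of 9. In segments of at least 6 kb, where the same 7958 borders enter every bin, GC content was 41.4% in the last bin outside and 42.2%, 42.5%, 42.6% and 42.5% in the first 4 bins inside.

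**Figure D4:**
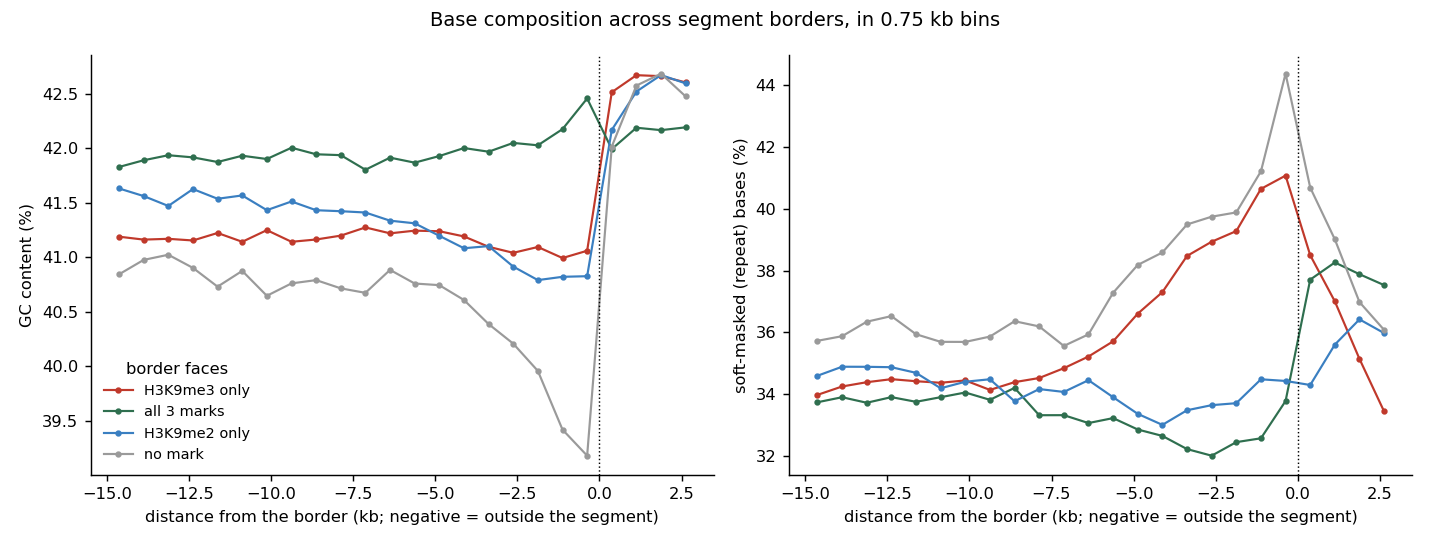
GC content (left) and soft-masked bases (right), both in percent, in 0.75 kb bins against distance from the segment border in kb, with negative distances outside and 1 line per set of marks that the border faces. GC content steps up on entering a segment from H3K9me3 only, H3K9me2 only and no mark, and steps down from 42.5% to 42.0% on entering from all 3 marks. Bins further inside come from wider segments only.

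Segments lay mostly between genes and in introns. By GENCODE M21, 59.2% of their bases were intergenic, 38.1% intronic and 2.61% exonic. H3K9me3 only was nearly alike with 59.3%, 38.1% and 2.64%, and the intergenic share of the segments was the lower of both on 7 of 9 chromosomes. H3K9me1 only had 64.1% of its bases in introns and 11.3% in exons. Promoters (within 1 kb of a transcript start on either side) made up 3.52% of the bases of segments. The share was 6.87% in unmarked runs, 5.28% in all 3 marks and 10.2% in H3K9me1 only, the latter pair above the segments on 9 of 9 chromosomes. It was close in H3K9me3 only, with 3.61%, and the segments were higher than these runs on 8 of 9 chromosomes. In H3K9me2 only it was 4.75%, and the segments were higher on 3 of 9.

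Of all segments, 1596 (10.7%, 10.2 to 11.2%) met a promoter, and 597 met one of a protein-coding gene. From the side of the genes, 496 of 9632 protein-coding genes on these chromosomes had a promoter window met by a segment, which is 5.15%. Runs of H3K9me3 only met 5.61% of the same genes, H3K9me2 only 3.86%, all 3 marks 10.7% and H3K9me1 only 42.4%. Over all 22392 annotated genes the share met by segments was 7.17%. Processed pseudogenes, which are retrotransposed copies of messenger RNAs, stood higher with 408 of 3600 (11.3%, 10.3 to 12.4%), as did lincRNAs, long noncoding RNAs between genes, with 258 of 2445 (10.6%, 9.40 to 11.8%). The share of protein-coding genes ran from 1.95% on chromosome 11 to 8.94% on chromosome 8. Among the 496 genes, 161 also met a run of all 3 marks in the same window, 149 one of H3K9me3 only and 78 one of H3K9me2 only, while 154 (31.0%, 27.1 to 35.3%) met no other marked run.

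Promoter sequences were taken from RefSeq. Of the 14308 promoters of 300 bases (250 before the start and 50 after it) on these chromosomes, 457 lay wholly inside a segment. Their median number of CpGs was 4, against 8 over all promoters, and their median GC content 48.3% against 54%. At least 10 CpGs were found in 18.6% (15.3 to 22.4%) of them and in 46.1% (45.3 to 47.0%) of all. TGCCGC occurred on either strand in 6.35% (4.45 to 8.96%) of them and in 11.9% (11.4 to 12.5%) of all.

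For 222 protein-coding genes (2.3%) the whole window around a start lay inside 1 segment. Leaving out predicted genes without a family name, 188 remained, and for 74 of them every annotated start did. The upstream sequences of 4 of the first of these genes by segment width show how far such promoters differ in CpG content. They are the 4 whose RefSeq entry lay inside the segment and whose upstream part met no annotated UTR. Each is 200 bases long, ends at the base before the start and is written 5' to 3' on the strand of its gene (GRCm38.p6), with every CpG in capitals.
Ces1h, chr8:93379778-93379977, minus strand: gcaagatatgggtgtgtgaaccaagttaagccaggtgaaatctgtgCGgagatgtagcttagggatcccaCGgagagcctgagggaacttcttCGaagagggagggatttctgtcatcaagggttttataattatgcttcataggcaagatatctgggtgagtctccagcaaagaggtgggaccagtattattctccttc
Lhcgr, chr17:88792015-88792214, minus strand: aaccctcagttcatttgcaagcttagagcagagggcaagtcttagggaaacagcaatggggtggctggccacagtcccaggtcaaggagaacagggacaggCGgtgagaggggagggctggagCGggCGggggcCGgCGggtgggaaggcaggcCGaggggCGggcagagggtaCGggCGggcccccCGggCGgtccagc
Mgat4c, chr10:101681287-101681486, plus strand: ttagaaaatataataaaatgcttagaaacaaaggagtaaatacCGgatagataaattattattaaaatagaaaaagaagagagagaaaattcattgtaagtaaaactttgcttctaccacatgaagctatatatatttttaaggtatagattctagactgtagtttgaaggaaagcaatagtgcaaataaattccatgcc
Tmem117, chr15:94628985-94629184, plus strand: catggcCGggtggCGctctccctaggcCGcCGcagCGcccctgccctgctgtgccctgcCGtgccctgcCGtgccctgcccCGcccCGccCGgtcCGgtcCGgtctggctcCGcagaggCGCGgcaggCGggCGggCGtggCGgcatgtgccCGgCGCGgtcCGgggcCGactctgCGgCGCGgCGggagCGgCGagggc
The Ces1h promoter had 3 CpGs in 47% GC and that of Mgat4c 1 CpG in 26.5% GC. The Lhcgr promoter had 11 CpGs and that of Tmem117 had 30 in 82.5% GC, so CpG-rich promoters were found under both marks too.

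The widest segment around a promoter measured 51.75 kb and held the whole gene Glp1r, the receptor of glucagon-like peptide, with both of its annotated starts (chromosome 17, 30897751 to 30949500). The carboxylesterase genes Ces1h and Ces1a on chromosome 8 had every annotated start inside a segment, of 45 kb and 21 kb. Ces1d had all 4 starts inside segments, but its segment of 27 kb (93144751 to 93171750) did not reach the 5' end of the gene at 93197838. These carboxylesterase genes are close copies of each other, so reads shared between them make their positions uncertain. Counts of starts, here and below, are over all segments, so not every start need lie in the segment whose width is given. Slc6a2, the norepinephrine transporter, had both starts in a segment of 29.25 kb, with 90.6% of the gene covered. Drd2, a dopamine receptor, had its start in a segment of 20.25 kb with 46.7% of the gene covered. Clec3a, a lectin gene of cartilage, Lilr4b, a leukocyte receptor gene, Tmem233 and Tmem117 also had every start inside, in segments of 25.5, 21, 21.75 and 23.25 kb.

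In other genes only some of the starts lay inside, again counted over all segments beside the width of 1 of them. Lhcgr, the luteinizing hormone receptor, had 3 of 4 starts in a segment of 28.5 kb, and Galnt14, which starts mucin-type glycosylation, had 4 of 5 in 22.5 kb. Col6a4, a collagen VI chain, had 2 of 4 starts in 33.75 kb. Mgat4c, a glycosyltransferase gene, had 4 of 11 and Tmtc2, an endoplasmic reticulum mannosyltransferase gene, had 2 of 6, in segments of 23.25 and 25.5 kb. For Myo18b, a muscle myosin gene, the segment of 37.5 kb held 1 of 4 starts. Abcg1, a cholesterol exporter, had 1 of 5 starts in 21 kb. Wscd1 had 1 of 5 starts in 24.75 kb. For Auts2, a gene of neural development, 1 of 20 starts lay in a segment of 21 kb.

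Gene lists were read against all protein-coding genes of the same chromosomes, weighted as in each list. Genes of a family can lie side by side and share a segment. The intervals count them as independent and may be too narrow. Defensins, antimicrobial peptides encoded in clusters, had the highest share, with 20 of 51 promoters met (39.2%, 27.0 to 52.9%) where all genes of their chromosomes gave 8.61%. The widest of their segments, 13.5 kb on chromosome 8 from 21930751 to 21944250, met both Defb15 and Defb35. Defb38 and Defb9 lay at segments of 9.75 kb, Defa24 at 9 kb and Defb12 at 8.25 kb. All met defensins lay on chromosome 8, which held 46 of the 51. Runs of H3K9me3 only met 26 of the 51 defensin promoters and all 3 marks met 0. Defensins exist in near-identical copies, so their positions are uncertain as well.

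Cytochrome P450 genes, which oxidise drugs and steroids, had 11 of 58 promoters met (18.97%, 10.9 to 30.9%, against 5.41%). They included Cyp3a25 at a segment of 16.5 kb, Cyp4f37 at 10.5 kb, Cyp3a59 and Cyp4f40 at 9 kb, and Cyp2c54 and Cyp3a44 at 6 kb. Olfactory receptor genes had 41 of 458 (8.95%, 6.67 to 11.9%, against 4.73%). Olfr319 and Olfr810 lay at segments of 11.25 kb and Olfr1394, Olfr401, Olfr402 and Olfr818 at 9 kb. Chromosome 10 held more of the met olfactory receptor genes than any other chromosome, in a cluster from 129637484 to 130214403. Chromosome 9, with the most olfactory receptor genes, had no promoter met. The pooled share thus does not hold for each chromosome. Other sets of marks met olfactory receptor promoters more often, with 94 for all 3 marks, 71 for H3K9me2 only and 43 for H3K9me3 only. Cytochrome P450 promoters were met by all 3 marks in 16 genes and by H3K9me1 only in 17. These sets met 10.7% and 42.4% of all protein-coding genes. Both families hold close copies. Vomeronasal receptors, the pheromone receptors, had 1 of 67 (1.49%, 0.264 to 7.98%), which was Vmn2r89 at a segment of 6 kb, and 4.74% of all genes of their chromosomes lies within this interval.

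Lists of nerve and adhesion genes gave mixed results. Ion channel genes had 9 of 50 promoters met (18%, 9.77 to 30.8%, against 4.96%), with the calcium channel gene Cacna1d at a segment of 18.75 kb and the potassium channel genes Kcnc2 at 10.5 kb and Kcnma1 and Kcnv1 at 6.75 kb. The sodium channel gene Scn10a lay at 8.25 kb and Kcnj1 at 4.5 kb. Cadherins and protocadherins had 5 of 21 (23.8%, 10.6 to 45.1%, against 7.21%), namely Pcdh8 at 13.5 kb, Pcdh15 at 11.25 kb, Cdh6 at 9 kb, Cdh5 at 8.25 kb and Cdh13 at 4.5 kb. Any annotated transcript start counts here, and some lay inside the gene. The Cdh13 segment began at 119151001, in a gene that starts at 118283733. The segments given for Cdh5, Kcnc2 and Kcnma1 also lay at inner starts, as did those given below for Grm6, Grik2, Ephb1 and Unc5cl. Kcnc2 and Unc5cl had a further segment at the outer start of the gene. Pcdh15 had 1 of 14 starts inside and Cacna1d 2 of 10. Glutamate and GABA receptor genes had 4 of 22 (18.2%, 7.31 to 38.5%, against 3.97%), among them Grm6 at 3.75 kb, and Gabrp and Grik2 at 1.5 kb. The axon guidance list had 3 of 28 (10.7%, 3.71 to 27.2%), which were Ephb1 at 9.75 kb, Unc5cl at 5.25 kb and Plxnc1 at 2.25 kb. Unc5cl shares its name with the Unc5 guidance receptors, and no role in axon guidance is claimed for it here. The synaptic adhesion gene Cntn1 was 1 of 17 and lay at 8.25 kb. Other sets of marks met these promoters as well. Over all protein-coding genes, H3K9me1 only met 42.4%, all 3 marks 10.7%, H3K9me3 only 5.61% and H3K9me2 only 3.86%. For ion channels, H3K9me1 only met 23, all 3 marks 11, H3K9me3 only 10 and H3K9me2 only 9. For cadherins the counts were 3, 7, 5 and 1 in the same order. For glutamate and GABA receptors they were 6, 3, 8 and 2. By length class (under 10, 10 to 50, 50 to 200 and at least 200 kb), all protein-coding genes gave 6.80% for the make-up of the ion channel list, 11.1% for cadherins and 11.5% for glutamate and GABA receptors. The interval of the ion channels lay above this share, while those of the cadherins and of the glutamate and GABA receptors include it. Intervals of the axon guidance and synaptic adhesion lists include the 4.88% and 4.76% of all genes of their chromosomes, and the 9.90% and 13.5% of all genes of their length classes.

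Of the other lists, none had an interval that lay wholly above or below the share of its chromosomes. Zfp zinc finger genes, many of which encode repressors of retrotransposons, had 5 of 153 (3.27%, 1.40 to 7.42%, against 4.96%), with Zfp454 at 9.75 kb, Zfp518b at 6 kb and Zfp488, Zfp617 and Zfp882 at 4.5 kb. Developmental transcription factors had 2 of 53 (3.77%, 1.04 to 12.8%), Irx6 at 17.25 kb and Sox14 at 2.25 kb. No promoter was met among 80 keratin genes, 48 ribosomal protein genes, 46 respiratory chain genes, 25 chemokine genes and 19 proteasome genes. The upper limits of these Wilson intervals were 4.58%, 7.41%, 7.71%, 13.3% and 16.8%, so the keratin, ribosomal, respiratory chain, chemokine and proteasome lists all allowed the share of their chromosomes. Among genes typical of fibroblasts 0 of 13 were met (0 to 22.8%, against 5.80%), and among markers of other cell types 1 of 12 (8.33%, 1.49 to 35.4%, against 3.98%). This was the endothelial cadherin Cdh5, with its segment at a start inside the gene. Both intervals include the share of their chromosomes. No RNA was measured here, so the cell type could not be checked by expression. Among 4 genes of H3K9 methyltransferases and HP1, 0 were met. The 9 genes named by the study, Actb, Bbs9, Cacna1i, Defb40, Nkx6-1, Olfr1431, Pou5f1, Tcap and Treml4, had 0 promoters met, and Defb40, Olfr1431 and Treml4 met H3K9me2 only.

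**Figure D5:**
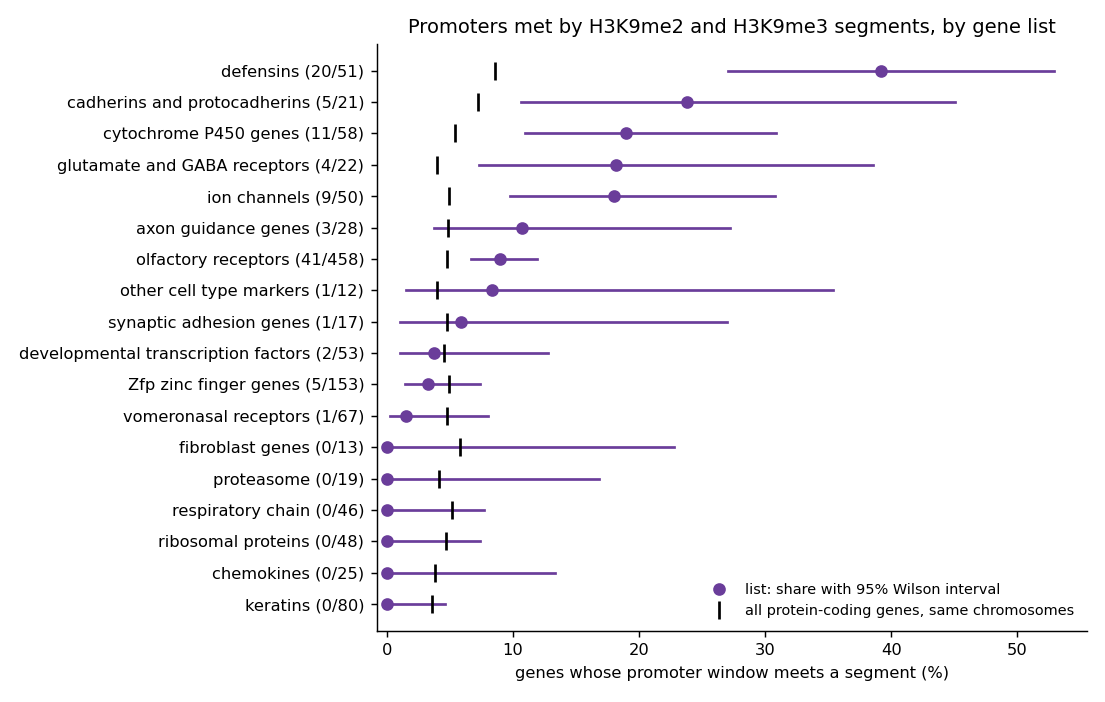
Share of genes in percent whose promoter window (1 kb either side of a start) meets a segment, for the gene lists with at least 12 genes on the 9 chromosomes, with the number met and the list size in brackets. Points are shares, bars 95% Wilson intervals and black ticks the share over all protein-coding genes of the same chromosomes. The bars of defensins, cadherins, cytochrome P450 genes, glutamate and GABA receptors, ion channels and olfactory receptors lie wholly above their ticks, though those of cadherins and of glutamate and GABA receptors include the share of genes of like length (11.1% and 11.5%). Bars count neighbouring genes as independent and may be too narrow.

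Long genes held more of the segments. The body of 996 protein-coding genes (10.3%) met a segment. The share of body bases inside segments, which takes out gene length, was 2.73% in genes under 10 kb, 1.97% from 10 to 50 kb, 3.35% from 50 to 200 kb and 8.99% in the 396 genes of at least 200 kb. Over all sequenced bases it was 7.14%. These shares were pooled and not read within chromosomes. Promoters were met in 20.96% of genes of at least 200 kb and in 4.63% of those under 10 kb. Longer genes also have more annotated starts, and the part of this was not tested. Among the genes with the most segments, chosen after their values were seen, were Pcdh15 with 137 segments over 54.1% of its 1550 kb, the catenin gene Ctnna3 with 114 over 29.2%, the neural catenin gene Ctnnd2 with 80 over 52.2% and Nkain2 with 71 over 24.9%. The promoter of Ctnna3 was not met. Pcdh15, Ctnna3 and Nkain2 lie on chromosome 10, which segments covered to 13.8%.

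Of the 7 widest segments, 5 met no protein-coding gene. The widest, 68.25 kb on chromosome 15 from 65408251 to 65476500, lay 311 kb from the nearest protein-coding gene, Efr3a, had 38.5% GC and 43.1% masked bases, and was flanked by all 3 marks and by H3K9me3 only. The next, 58.5 kb on chromosome 8 from 114279001 to 114337500, lay in Vat1l, 99.4% of it in introns. A segment of 56.25 kb on chromosome 8 from 113387251 to 113443500 was a whole H3K9me2 region in intergenic sequence, 192 kb from Mon1b. In all, 4 segments were wider than 51.75 kb, of which 3 are described here, and 3 segments had that width. One held Glp1r (above), another on chromosome 17 from 9213751 to 9265500 lay 157 kb from the predicted gene Gm17728, and another on chromosome 8 from 92397751 to 92449500 lay 21.5 kb from Irx5. GC content of these 7 segments ran from 38.5 to 49.5% and masked bases from 18.7 to 43.1%.

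On the other chromosomes the widest segments were 46.5 kb on chromosome 10 (71701501 to 71748000), 38.25 kb on chromosome 11 (71897251 to 71935500), 33.75 kb on chromosome 9 (46543501 to 46577250), 29.25 kb on chromosome 14 (41741251 to 41770500) and 27.75 kb on chromosome 19 (54197251 to 54225000). Only that on chromosome 14 met protein-coding genes, the predicted genes Gm47189 and Gm7929. That on chromosome 19 lay 148 kb from Adra2a, an adrenergic receptor gene, and that on chromosome 11 lay 92.5 kb from Aipl1, a photoreceptor chaperone gene.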

How the data were processed

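According to the study's methods, chromatin was crosslinked and sonicated, and the authors aligned reads with bwa (0.7.1 in the submitters' processing notes) to the GRCm38 assembly and called regions with histoneHMM, a hidden Markov model over genomic bins. The calling threshold and the use of replicates and input are not given in the sources used here. The deposited lists hold chromosome, start and end only, as coordinates in bp, and all positions lay on a 750 bp grid (0 off it) with starts 1-based. Runs were cut in Python 3.11.15 with NumPy 2.4.6 and described with GRCm38.p6 sequence and soft-masking, GENCODE M21 genes and RefSeq promoters. Wilson intervals (95%) came from SciPy 1.17.1, and the splitting was tested on simulated data. The named genes were the first 20 by segment width with a whole promoter window inside, up to 6 members a list, genes in the 5 widest segments (ties included) and genes the study names, except a few items not reported here. Of these 20 genes, 10 had a RefSeq promoter inside the segment. Segments and lists were chosen with earlier results of these data known. No test was run between conditions, since there was 1 map per mark.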

Additional observations from a re-analysis of the deposited data

How the results depend on the processing

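Results were recomputed under 9 other ways of building the segments and with other promoter windows. Leaving out a replicate was not possible, because each list has no values per replicate. No paired analysis was possible because no result came from a test. Without a minimum width, masked bases were 36.1%, segments meeting a promoter 9.72%, borders facing H3K9me3 only 39.7% and borders facing all 3 marks 36.1%. With runs of at least 3 kb there were 9306 segments, with 35.3%, 13.1%, 43.5% and 33.1%, in the same order. With runs of at least 6 kb there were 3979 segments of 41.4 Mb and 42.6% GC, meeting 220 protein-coding promoters, with 33.8%, 16.9%, 44.6% and 33.6%. With regions of at least 5 kb there were 7750 segments of 42.4% GC, with 34.9%, 15.9%, 43.6% and 26.2%. Joining regions up to 750 bp apart gave 42.4% GC, 36.0% masked, and 39.7% and 37.6% of borders. Joining up to 1500 bp gave 42.4% GC, with 36.1%, 12.005%, 38.9% and 38.3%. Starts read as 0-based gave 35.8% masked, and 39.7% and 37.8% of borders. Without chromosome 10, GC was 43.2%, with 34.0%, 11.3%, 43.4% and 31.2%. Without chromosomes 10 and 15 there were 8209 segments of 40.6 Mb and 43.8% GC, with 32.9%, 12.5%, 44.7% and 27.8%. Pooled, borders facing H3K9me3 only stayed ahead of those facing all 3 marks under each of these 9 settings, but in the segments as reported all 3 marks were ahead on chromosomes 10, 15 and 17. Segments meeting a promoter came to 7.84% with the start base alone, 13.6% with 2 kb either side and 4.02% with protein-coding genes only. The whole window inside 1 segment left 222 of the 496 genes. Read depth is unknown from the lists, which limits all of these values.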
